A study of Chamaelirium luteum with 2 samples.

Results

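Isolated arm peaks are called regions of open chromatin that stand alone on the chromosome arms of Cha. luteum, with the next peak summit at least 30 kb away on either side. They were found in each ATAC-seq library on its own. A peak counted when its summit lay on 1 of the 22 large scaffolds, outside the 8 mapped centromere intervals and outside the first 16 Mb of scaffold 9, and when it overlapped a peak of the other library by at least 1 bp. By this rule, 867 of 39233 peaks were isolated in replicate 1 and 720 of 41385 in replicate 2. The members were thus chosen by the measured summit positions and by the overlap, and both are given here only as descriptions.

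Both libraries came from nuclei of fresh leaves of Cha. luteum, about 75000 nuclei each, tagmented with the TDE1 enzyme and read in pairs of 151 cycles per end. They are replicates 1 and 2 of 1 condition, with no treated or mutant group. Both labels carry the code A112, whose meaning they do not give, while the peaks listed for replicate 2 are named with A114, and the samples were grouped by their labels. By the study's account, tissue for sequencing was taken from different plants of 1 greenhouse, but which plants gave these libraries is not stated, so the SDs measure the spread between 2 libraries, which may be technical. Library totals were not used here, and the depth behind a peak is given as the fragments stacked on its summit, solved from its deposited fold enrichment and p-value.

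In ATAC-seq, the Tn5 transposase inserts adapters into DNA that is not wrapped tightly around nucleosomes, so a pile of fragments marks accessible chromatin. In plant genomes such regions often lie at the promoters of genes, where transcription factors and the transcription machinery bind. Others lie far from genes and can hold enhancers or other distal elements. Cha. luteum, a lily relative, has a single large centromere on each chromosome, and the arms are the sequence outside these centromeres. Genes and repeats were not used here, so the isolated peaks are described by their shape, signal and place, and no class of element is given to them.

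On the arms, which span 615 Mb in all, the isolated peaks made up 2.75% of the peaks shared between the libraries in replicate 1 and 2.29% in replicate 2. Their density was 1.41 per Mb in replicate 1 and 1.17 per Mb in replicate 2. Their nearest neighbouring summit lay at a median of 39.3 kb in replicate 1 and 38.7 kb in replicate 2, and the longest distance was 257 kb in replicate 1 and 200 kb in replicate 2. Most members thus lay close to the limit of the rule, and 205 in replicate 1 and 164 in replicate 2 were at least 50 kb from the nearest summit. The farther of the 2 neighbouring summits lay at a median of 62.8 kb in replicate 1 and 62.9 kb in replicate 2. The other shared arm peaks had a neighbour at a median of 4.23 kb in replicate 1 and 3.96 kb in replicate 2. The stretches between the flanking summits of isolated peaks covered 94.0 Mb in replicate 1 and 77.4 Mb in replicate 2, which is 15.3% and 12.6% of the arms. The next summit after an isolated peak was itself an isolated peak in 160 cases in replicate 1 and 116 in replicate 2.

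Lone and remaining arm peaks overlapped the other library at similar rates. Before the overlap was demanded, 1071 arm peaks of replicate 1 stood alone and 81.0% of them overlapped a peak of replicate 2, against 82.3% of the remaining arm peaks. In replicate 2, 935 arm peaks stood alone and 77.0% overlapped a peak of replicate 1, against 78.1% of the remaining ones. The lone peaks with no overlap were weak, with a median of 16 fragments at the summit and a width of 227 bp in replicate 1 (204 peaks) and 17 fragments and 240 bp in replicate 2 (215 peaks). The remaining arm peaks with no overlap had a median of 19 fragments in both libraries and widths of 233 bp in replicate 1 and 234 bp in replicate 2.

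Isolated peaks were about as wide as the other arm peaks, held fewer fragments at the summit, lay on a lower background and had a higher fold enrichment. All comparisons below set them against the other arm peaks that also overlap a peak of the other library, 30617 in replicate 1 and 30764 in replicate 2, since wide and strong peaks overlap more often. A two-sided exact permutation test that flips the signs of the 2 libraries gave p = 0.5 for each of the 5 measures compared (width, fragments, background, fold and distance to the scaffold end), which is the smallest p that 2 libraries allow. This test could therefore pass no difference at 0.05, and each is given with its SD between libraries and its direction in both libraries and on the scaffolds.

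The width of the isolated peaks had a median of 403 bp in replicate 1 and 415.5 bp in replicate 2, against 410 bp and 418 bp for the other arm peaks. The difference was -4.75 ± 3.18 bp (SD, n = 2 libraries), small beside the spread among peaks, since the 25th and 75th percentiles of the isolated peaks were 286 and 540.5 bp in replicate 1. With a limit of 20 kb in place of 30 kb the isolated peaks were the wider ones, by 16 bp. On 21 scaffolds with at least 5 members in each library, the isolated peaks were wider in both libraries on 6 and narrower in both on 7. Regions of 1 kb or more made up 3.25% ± 0.514 of the isolated peaks (25 in replicate 1 and 26 in replicate 2) and 3.24% ± 0.107 of the other arm peaks. The summit sat off the midpoint by a median of 11.9% of the width in replicate 1 and 10.4% in replicate 2 in isolated peaks, and by 11.8% and 11.6% in the others.

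At the summit, a median of 30 fragments was stacked in isolated peaks of replicate 1 and 34 in those of replicate 2, against 38 and 41 in the other arm peaks. The difference was -7.50 ± 0.707 fragments (SD, n = 2), and the median was lower in both libraries on 17 of 21 scaffolds. Set against all other arm peaks, overlapping or not, the difference was -2 fragments in replicate 1 and 1 in replicate 2. The upper end of the range differed less for its size. The 75th percentile was 51 fragments in isolated peaks of replicate 1 and 55 in those of replicate 2, against 60 and 66 in the others, while the 95th was 107 and 124 against 111 and 128. Summits of at least 100 fragments made up 8.24% ± 2.68 of the isolated peaks and 8.98% ± 2.36 of the others, so such high summits occurred at a similar rate in both sets.

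The background is the number of fragments that MACS expected at the place, the higher of a genome-wide value and a local value from the reads around it. The genome-wide value was 3.38 fragments in replicate 1 and 3.18 in replicate 2. Isolated peaks had a median background of 3.82 fragments in replicate 1 and 3.48 in replicate 2, against 6.27 and 6.06 for the other arm peaks, and it was lower in both libraries on 21 of 21 scaffolds. The background of 42.0% ± 1.75 of the isolated peaks was the genome-wide value itself (within 0.5%), compared with 9.95% ± 0.0798 of the others. Reads of neighbouring peaks can raise a local background, so the rule that chose the isolated peaks can lower it by construction. A high background also occurred without a close neighbour. The isolated region with the most fragments had the highest background, 25.6 in replicate 1 and 30.8 in replicate 2, with its nearest summit 67.2 kb away. How much of the difference neighbouring peaks account for was not tested.

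The deposited fold enrichment is the ratio of the fragments to this background, each plus 1. Its median was 6.17 in isolated peaks of replicate 1 and 7.42 in those of replicate 2, against 5.26 and 5.80 in the other arm peaks. The difference was 1.26 ± 0.498 (SD, n = 2), positive in both libraries on 20 of 21 scaffolds, scaffold 11 being the exception in replicate 1. Fold values of at least 10 were found in 23.5% ± 6.38 of the isolated peaks and in 10.8% ± 3.74 of the others. The isolated peaks had this higher fold with a lower background and fewer fragments. Because the background enters the ratio, the rule can also raise the fold by construction, and its part was not tested. The fragments above the background had a median of 25.6 in isolated peaks of replicate 1 and 30.4 in those of replicate 2, against 31.0 and 34.0 in the others. The -log10 q, which grows with both the fragments and the fold, had medians of 14.4 in replicate 1 and 19.4 in replicate 2 for the isolated peaks and 15.01 and 17.73 for the others, and so differed in opposite directions in the 2 libraries.

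**Figure D1:**
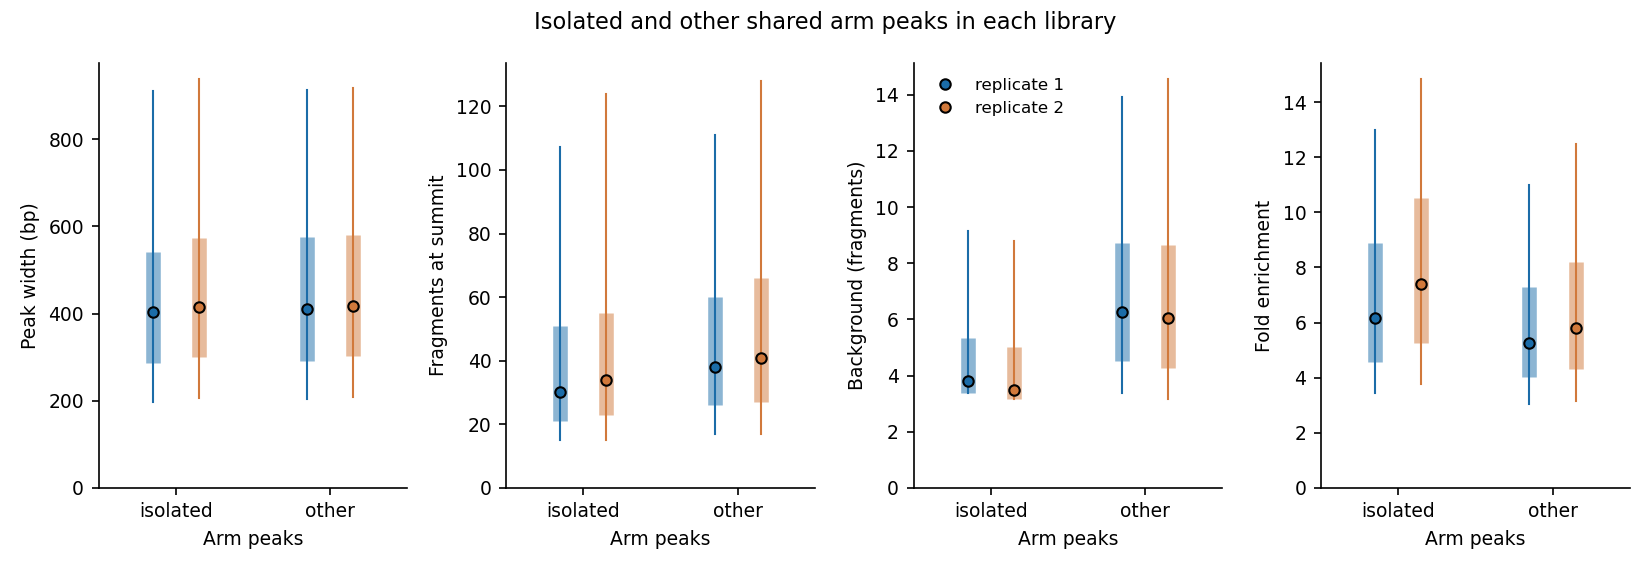
Width in bp, fragments at the summit, background in fragments and fold enrichment of isolated (left in each panel) and other shared arm peaks (right), in replicate 1 (blue) and replicate 2 (orange). Circles are medians, thick bars run from the 25th to the 75th percentile and thin lines from the 5th to the 95th; the widths nearly coincide, while the median background of the isolated peaks is 3.82 and 3.48 fragments against 6.27 and 6.06.

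When all shared arm peaks were sorted by the distance to their nearest summit, the background declined from 1 kb on, while width, fragments and fold each took a course of their own. The median width was 349.5 ± 4.95 bp (SD, n = 2) for peaks with a summit within 1 kb, 439.5 ± 9.19 bp at 3 to 10 kb, 442 ± 11.3 bp at 20 to 30 kb, 412.5 ± 7.78 bp at 30 to 50 kb and 393 ± 13.8 bp beyond 50 kb. Width thus peaked at intermediate distances. Isolated peaks were wider than those with a summit within 1 kb and narrower than those with a neighbour at 3 to 30 kb. Peaks of 1 library do not overlap each other, so a summit within 1 kb limits the width by construction. Fragments at the summit were most numerous for peaks with a neighbour at 1 to 3 kb, with a median of 43.0 ± 1.41, and declined to 36.0 ± 1.41 at 20 to 30 kb, 32.5 ± 3.54 at 30 to 50 kb and 29.3 ± 1.06 beyond 50 kb. The median background was 7.87 ± 0.170 fragments at 1 to 3 kb, 4.39 ± 0.269 at 20 to 30 kb and 3.78 ± 0.287 at 30 to 50 kb. Beyond 50 kb it was the genome-wide value in both libraries. The median fold was 4.60 ± 0.260 within 1 kb, 7.003 ± 0.659 at 20 to 30 kb, 6.81 ± 0.911 at 30 to 50 kb and 6.65 ± 0.358 beyond 50 kb. The high fold was thus already reached at 20 to 30 kb, below the limit of the rule.

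**Figure D2:**
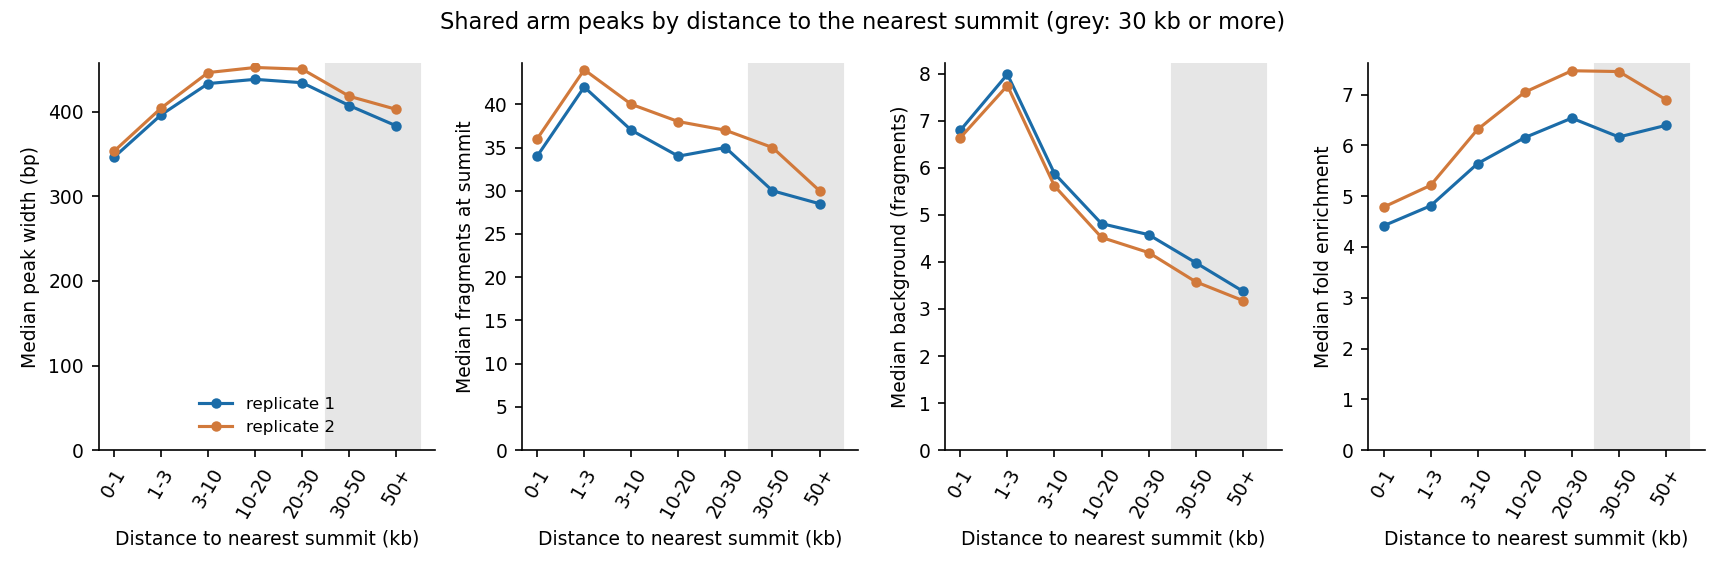
Median width in bp, fragments at the summit, background in fragments and fold enrichment of the shared arm peaks, by distance to the nearest other summit in kb, in replicate 1 (blue) and replicate 2 (orange). The grey area marks distances of 30 kb or more; the background is highest at 1 to 3 kb and declines from there to 3.38 and 3.18 fragments, while the fold levels off from 20 to 30 kb on, at 6.54 and 7.47 in that class.

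Peaks just inside and just outside the limit differed in width in opposite directions in the 2 libraries. Median fragments and fold were lower just inside the limit in both libraries. In replicate 1, 132 shared arm peaks with the nearest summit at 30 to 32 kb had medians of 406.5 bp, 28 fragments and a fold of 5.71, and 156 peaks at 28 to 30 kb had 383.5 bp, 31 fragments and a fold of 6.39. In replicate 2, 109 peaks inside had 394 bp, 35 fragments and a fold of 7.55, and 143 peaks outside had 462 bp, 36 fragments and a fold of 7.59. The nearest members inside were those of scaffold 7 from 16926970 to 16927508 in replicate 1, with a summit at 30000 bp and 48 fragments, and of scaffold 2 from 12327801 to 12328452, at 30018 bp and with 16 fragments. In replicate 2, a pair of peaks on scaffold 21 stood exactly 30000 bp apart, from 3781608 to 3781892 with 19 fragments and from 3811564 to 3811996 with 75. Just outside were peaks of scaffold 6 from 42861659 to 42862021 (29989 bp, 38 fragments) and scaffold 8 from 217509 to 217851 (29982 bp, 35 fragments) in replicate 1. In replicate 2 they were peaks of scaffold 7 from 12017810 to 12018363 (29991 bp, 65 fragments) and of scaffold 8 from 217489 to 217731 (29985 bp, 48 fragments).

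Among the isolated peaks themselves, the distance to the nearest summit was hardly correlated with fragments or width, over distances that the rule cuts at 30 kb. Its Spearman correlation across peaks was -0.0194 with the fragments in replicate 1 and -0.0298 in replicate 2, and with the width -0.0139 and -0.0149. Median fragments were still lower beyond 50 kb than at 30 to 50 kb, with 28.5 against 30 in replicate 1 and 30 against 35 in replicate 2. Width and fragments went together, with a correlation of 0.608 across the isolated peaks of replicate 1 and 0.575 across those of replicate 2, compared with 0.559 and 0.551 across the other arm peaks. These values are across peaks of 1 library, which share its depth and are not independent replicates. The peaks that flank the isolated ones, 1403 in replicate 1 and 1200 in replicate 2, were weaker than the isolated peaks, with a median of 27 fragments in replicate 1 and 28 in replicate 2 and a width of 350 bp and 359 bp. They were not chosen for overlap, and 76.1% of them in replicate 1 and 73.9% in replicate 2 overlapped a peak of the other library.

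Isolated peaks were found on 21 of the 22 scaffolds. Scaffold 17, of which only 2.59 Mb lie outside the centromere, had the highest density, with 3.87 per Mb in replicate 1 and 4.64 in replicate 2. It carried 10 and 12 isolated peaks, which were 20.8% and 25.5% of its shared arm peaks. Scaffold 4 followed with 1.95 and 1.74 per Mb (95 and 85 peaks, the most on any scaffold) and scaffold 3 with 1.71 and 1.42 per Mb (84 and 70 peaks). The density of all arm peaks was 24.6 per Mb on scaffold 17, 56.1 on scaffold 4 and 62.5 on scaffold 3, as means of the libraries.

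No isolated peak lay on scaffold 20, whose arms span 2.15 Mb with 63.2 arm peaks per Mb. The count was 0 of 91 shared arm peaks in replicate 1 and 0 of 94 in replicate 2. At the share over all scaffolds, only 2.51 and 2.15 isolated peaks would lie there. A lack of isolated peaks can thus not be told from the common rate at this number of peaks. Scaffold 20 held 3 lone peaks in each library, all without an overlap. The lowest densities after it were on scaffold 15, with 1.12 per Mb in replicate 1 and 0.769 in replicate 2, scaffold 8, with 1.010 and 0.886, and scaffold 13, with 1.09 and 0.807. Scaffold 10 differed most between the libraries for its number, with 32 isolated peaks in replicate 1 and 14 in replicate 2.

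The 8 scaffolds with a mapped centromere carried 1.52 ± 0.204 isolated peaks per Mb of arm (SD, n = 2) and the 14 without one 1.15 ± 0.148, and these were 3.25% ± 0.435 and 2.13% ± 0.273 of the shared arm peaks. Without scaffold 17, a choice made after its values were seen, those with a centromere still carried 1.49 ± 0.212 per Mb. In each library the value was higher for the scaffolds with a centromere, and the difference was not tested beyond that. The density of all arm peaks, as means of the libraries, ran from 55.8 to 65.7 per Mb on the scaffolds with a centromere other than scaffold 17. On the scaffolds without one it ran from 56.9 to 72.8 per Mb. Sparser summits make lone peaks more likely under the rule, and this part was not tested.

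**Figure D3:**
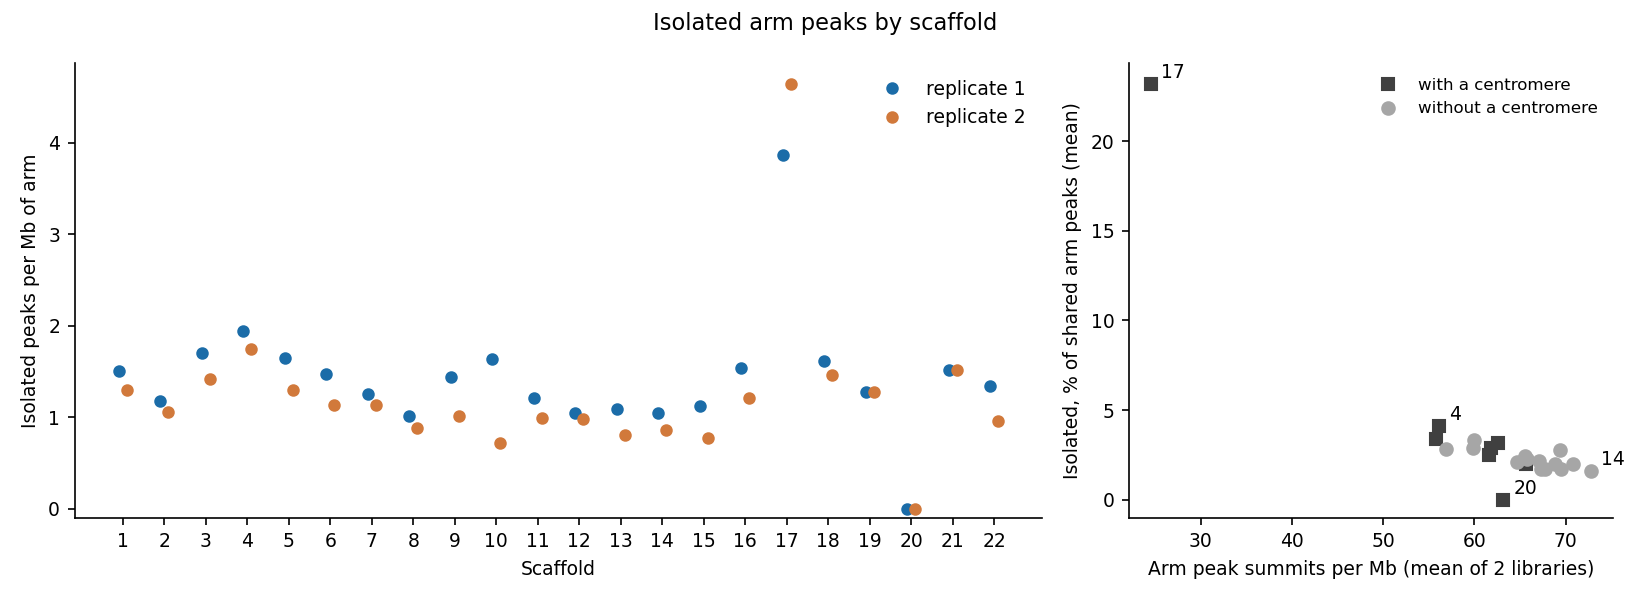
Left, isolated peaks per Mb of arm on each of the 22 scaffolds in replicate 1 (blue) and replicate 2 (orange). Right, isolated peaks as a percentage of the shared arm peaks against the summits of all arm peaks per Mb, means of the 2 libraries, with squares for scaffolds with a centromere and circles for those without; scaffold 17 stands apart at 24.6 summits per Mb, and scaffold 20 has no isolated peak.

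Along the arms, isolated peaks lay nearer to the centromeres than the other arm peaks. On the scaffolds with a centromere, the median distance to its edge was 9440 kb in replicate 1 and 9409 kb in replicate 2 for isolated peaks, against 12342 kb and 12319 kb for the others. Without scaffold 17 the medians were 9660 kb and 9969 kb against 12377 kb and 12363 kb. Of the isolated peaks on these scaffolds, 12.9% ± 0.147 (50 in replicate 1 and 42 in replicate 2) lay within 2 Mb of an edge, compared with 8.27% ± 0.0312 of the others. Scaffold 17 gave a large part of this, and without it the shares were 10.04% ± 0.605 and 7.99% ± 0.0509. The density of isolated peaks was 1.99 ± 0.389 per Mb within 1 Mb of an edge, 1.48 in the next Mb (17 peaks in each library), 2.05 ± 0.306 between 2 and 5 Mb, 1.58 ± 0.198 between 5 and 10 Mb and 1.32 ± 0.179 beyond. It thus showed no steady course, and the bins nearest to the edge depended on scaffold 17. Without that scaffold the density was 1.69 ± 0.436 per Mb within 1 Mb and 1.24 ± 0.135 in the next Mb (14 and 12 peaks), which is below the value beyond 10 Mb. The density of all arm peaks ran the other way, with 46.7 ± 5.15 per Mb within 1 Mb and 64.4 ± 2.26 beyond 10 Mb. Lone peaks are more likely under the rule where summits are sparser, and this part was not tested. Within 2 Mb of an edge, isolated peaks were narrower, with a median of 358 bp in replicate 1 and 364.5 bp in replicate 2, against 392 bp and 418 bp for the other peaks there, and their fold was 7.22 and 9.09 against 4.89 and 5.50. These medians rest on 50 and 42 isolated peaks, include scaffold 17 and were not taken without it. Farther than 2 Mb from an edge the fold was higher too, at 6.39 and 7.87 against 5.23 and 5.84. The widths there were 393 bp and 434.5 bp against 411 bp and 420 bp.

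Isolated peaks were also somewhat more frequent near the scaffold ends. Within 1 Mb of an end lay 72 isolated peaks in replicate 1 and 59 in replicate 2, which is 8.25% ± 0.0778 of them, compared with 5.37% ± 0.0210 of the other arm peaks. Without scaffold 17 the shares were 7.65% ± 0.235 and 5.29% ± 0.0278. All arm peaks were sparser at the ends, with 54.5 ± 3.08 per Mb within 1 Mb, 66.5 ± 2.22 at 5 to 10 Mb and 64.4 ± 2.39 beyond. Sparser summits make lone peaks more likely under the rule, and this part was not tested. Scaffold ends need not be chromosome ends. The density of isolated peaks was 1.58 ± 0.221 per Mb within 1 Mb of an end, 1.05 ± 0.157 at 5 to 10 Mb and 1.40 ± 0.154 beyond 10 Mb. It was thus high at both the ends and the inner parts of the scaffolds. The median distance to the nearer end was accordingly not a good summary, at 9481 kb in replicate 1 and 10176 kb in replicate 2 for isolated peaks and 9138 kb and 9121 kb for the others, a difference of 699 ± 503 kb.

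**Figure D4:**
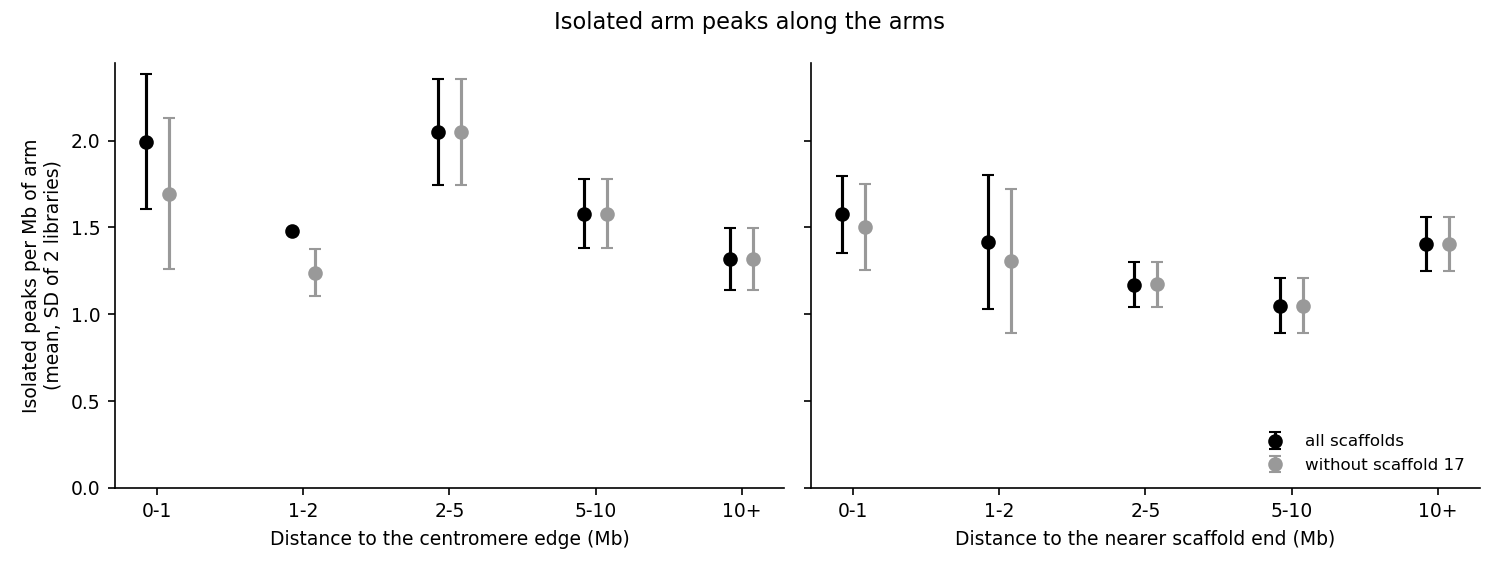
Isolated peaks per Mb of arm by distance in Mb to the centromere edge (left, the 8 scaffolds with a centromere) and to the nearer scaffold end (right), with all scaffolds in black and without scaffold 17 in grey. Points are means and bars SDs of 2 libraries; the bin at 2 to 5 Mb from the edge reaches 2.05 per Mb and the bin beyond 10 Mb 1.32, and without scaffold 17 the bin at 1 to 2 Mb is at 1.24.

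Isolated peaks lay in both peak-poor and peak-rich sequence, with fewer per window where summits were dense. Of 595 full windows of 1 Mb on the arms, 178 held no isolated peak in replicate 1, 211 held none in replicate 2 and 127 held none in either. Windows with 20 to 39 summits held 2.55 ± 0.0832 isolated peaks on average, windows with 60 to 79 summits 1.014 ± 0.0702 and windows with 80 or more 0.471 ± 0.0406. A relation of this kind follows from the rule, since summits crowd each other out. Even so, 38.6% ± 4.68 of the windows with 80 or more summits held at least 1 isolated peak. The number of isolated peaks per window had a Spearman correlation of 0.611 between the libraries, across windows, which share the scaffold sequence. Every member overlaps a peak of the other library, and 462 regions were members in both. Part of this agreement thus follows from the rule, and how much was not tested. By the mean of the libraries, the most isolated peaks in a window were found on scaffold 2 from 45000001 to 46000000, with 5 isolated peaks of 46 summits in replicate 1 and 6 of 41 in replicate 2, and on scaffold 17 from 1000001 to 2000000, with 5 of 24 and 6 of 23. In replicate 1 alone, the window of scaffold 5 from 31000001 to 32000000 held the most, 6 of 23 summits, and it held 4 of 26 in replicate 2.

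The isolation of a peak was less stable between the libraries than the peak itself. Of the isolated peaks of replicate 1, 462 (53.3%) overlapped a peak that was isolated in replicate 2 too, and these were 64.2% of the isolated peaks of replicate 2. In all, 1125 regions were isolated in at least 1 library. For the other 405 members of replicate 1, the overlapping peak of replicate 2 had its nearest summit at a median of 8.90 kb, and for 258 members of replicate 2 the overlapping peak of replicate 1 had it at 10.3 kb. The peaks that ended the isolation were weak. The 591 peaks of replicate 2 within 30 kb of such a partner had medians of 18 fragments, 236 bp and a -log10 q of 5.43, and 99.2% of them overlapped no peak of replicate 1. The 322 such peaks of replicate 1 had medians of 16 fragments, 230 bp and a -log10 q of 4.59, and 97.8% overlapped no peak of replicate 2. The lack of overlap follows from the rule, since a neighbour listed in both libraries would have ended the isolation in both. Their low signal goes with it, as all arm peaks with no overlap had a median -log10 q of 4.74 in replicate 1 and 5.20 in replicate 2. These members thus counted as isolated in 1 library because mostly weak neighbours were listed only in the other.

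The peaks isolated in 1 library only held about as many fragments as those isolated in both, on a higher background and at a lower fold. Peaks isolated in 1 library only had a median of 30 fragments in replicate 1 and 34 in replicate 2, against 30 and 35 in those isolated in both. Their background was 4.22 and 3.76 fragments against 3.44 and 3.27, and their fold 5.94 and 6.94 against 6.38 and 7.69. Their widths had medians of 410 bp and 431 bp against 396.5 bp and 410 bp. These differences were not tested. The 462 shared regions lay on 21 scaffolds, with 27 within 2 Mb of a centromere edge and 40 within 1 Mb of a scaffold end.

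The signal of an isolated region was alike in the 2 libraries, and its width less so. Across the 462 regions, the Spearman correlation between the libraries was 0.920 for the fragments and 0.690 for the width. The summits lay a median of 30 bp apart, and 66.2% were within 50 bp. Over all members, the shift to the partner's summit had a median of 32 bp in both libraries, against 39 bp for the other arm peaks. The width differed by a factor of at least 2 in 31 of the 462 regions (6.71%), and the fragments in 3. Over all members with their partners the share with such a width difference was 5.80% ± 0.0469, against 5.34% ± 0.0204 of the other arm peaks. The fold was higher in replicate 2 in 354 of the 462 regions, and the median ratio of replicate 2 to replicate 1 over all 462 was 1.13. In the other shared arm peaks of replicate 1 the median ratio was 1.10, so a higher fold in replicate 2 was not particular to the isolated regions.

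**Figure D5:**
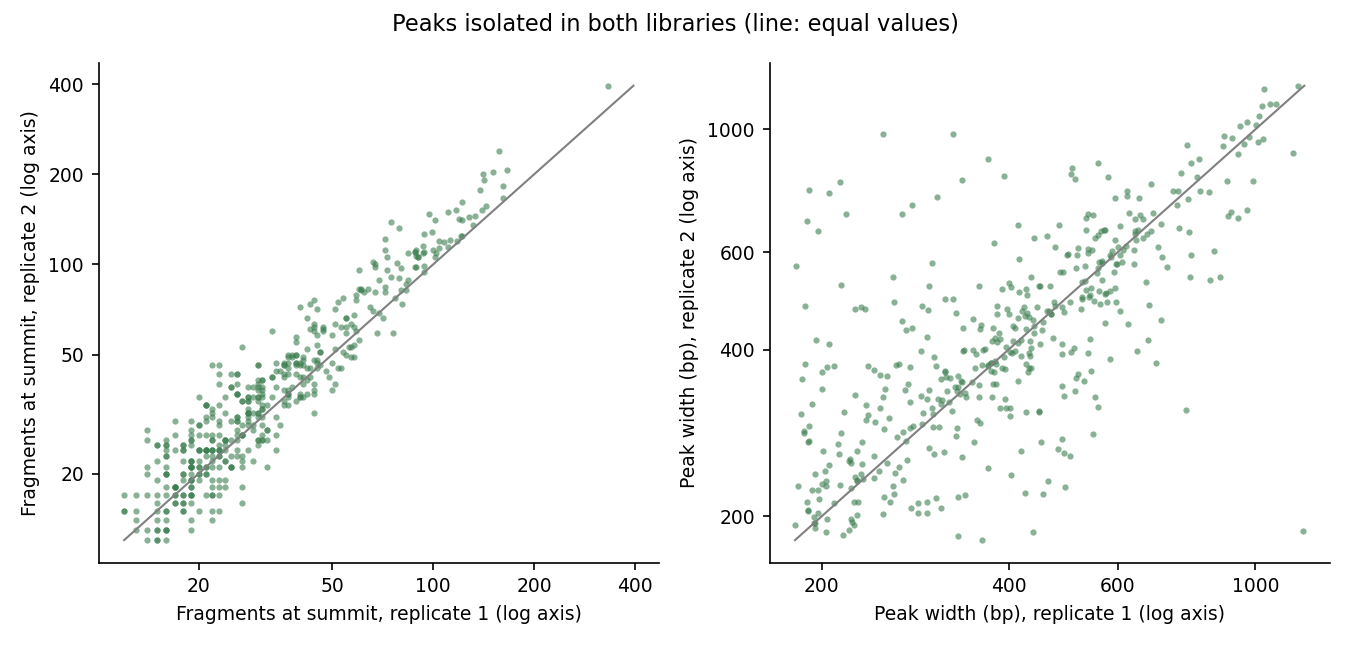
Fragments at the summit (left) and width in bp (right) of the 462 peaks isolated in both libraries, replicate 1 on the horizontal and replicate 2 on the vertical axis, both axes logarithmic. Each point is a region and the line marks equal values; the fragments lie close to the line, mostly a little above it, while 31 widths differ by a factor of 2 or more.

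The regions farthest from any other summit lay mostly on scaffold 4, which holds 4 of the 6. The first, from 38495337 to 38495615 in replicate 1, had its nearest summit at 172 kb in both libraries, with 30 fragments at the summit in replicate 1 and 40 in replicate 2 and a fold of 7.08 and 9.81. Its width was 279 bp in replicate 1 and 730 bp in replicate 2. The next summit on its right was also an isolated region, from 38667256 to 38667789, with 45 fragments in both libraries and a fold of 10.50 and 11.005. On its right followed an isolated region from 38796821 to 38797015, which is among the narrowest with 195 bp and 194 bp and held 20 fragments in both libraries. These regions fall in the window of scaffold 4 from 38000001 to 39000000, where 5 of 9 summits in replicate 1 and 4 of 12 in replicate 2 were isolated peaks. Farther along, the region from 39204942 to 39205783 was among the strongest, with 141 and 201 fragments and a width of 842 bp and 769 bp. It had no summit for 313 kb on its left in replicate 1 and for 137 kb in replicate 2. The longest distance in a single library, 257 kb in replicate 1, belonged to the region from 38023738 to 38024058, named here after its value was seen. It held 15 fragments in replicate 1 and 12 in replicate 2, where its nearest summit lay at 35.4 kb.

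On the other arm of scaffold 4, the region from 14002452 to 14002867 stood 143 kb from the nearest summit in both libraries, with 45 fragments in replicate 1 and 58 in replicate 2 and a fold of 10.50 and 13.98. The region from 10933417 to 10933844 stood 138 kb from it in replicate 1 and 132 kb in replicate 2, with 36 and 42 fragments. On scaffold 17, the region from 373773 to 374852 had neighbours at 158 and 157 kb in replicate 1 and at 163 and 156 kb in replicate 2. It was also among the widest, with 1080 bp and 1109 bp, and held 90 and 106 fragments at a fold of 12.7 and 13.7. It lay 1.65 Mb from the centromere edge. The region of scaffold 1 from 45089267 to 45089510, 114.4 kb from the nearest summit in replicate 1 and 114.7 kb in replicate 2, was weak, with 15 and 13 fragments and a fold of 3.65 and 3.35. The most remote regions thus ranged from near the weakest to well above the median of 30 and 34 fragments.

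The strongest isolated region was that of scaffold 4 from 42368860 to 42369863, with 332 fragments at the summit in replicate 1 and 395 in replicate 2. The highest number among all other arm peaks was 341 in replicate 1 and 389 in replicate 2, so the summit of this lone region held about as many fragments as any on the arms. It was 1004 bp and 1020 bp wide, with neighbours at 67.2 and 83.5 kb in replicate 1. Its background, 25.6 and 30.8 fragments, was the highest of any isolated peak, and its fold of 12.5 in both libraries was below that of weaker regions. The region of scaffold 5 from 30728425 to 30728994 held 157 and 239 fragments and stood close to the limit of the rule, with neighbours at 31.1 and 30.5 kb in replicate 1, and that of scaffold 3 from 29649776 to 29650330 held 166 and 206 at a fold of 18.7 and 21.2. The region of scaffold 6 from 23002733 to 23003291 held 162 and 182 fragments, with no other summit for 81.5 kb on its left and 73.2 kb on its right in replicate 1. The region of scaffold 3 from 14373848 to 14374651, with 151 and 204 fragments and a width of 804 bp and 820 bp, lay 4.97 kb from the edge of the centromere. The 6 strongest regions were all 551 bp or wider in both libraries, above the median of the isolated peaks.

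The remaining widest regions were those of scaffold 3 from 57253614 to 57254785 (1172 bp in replicate 1 and 1199 bp in replicate 2), of scaffold 10 from 26163566 to 26164598 (1033 bp and 1185 bp) and of scaffold 1 from 25735215 to 25736271 (1057 bp and 1111 bp). They held 47 and 60, 161 and 166, and 84 and 89 fragments, all above the medians of the isolated peaks. In the first, the summits of the libraries lay 623 bp apart, and in the other 2 they lay 49 and 30 bp apart. In all, 7 regions were at least 1 kb wide in both libraries.

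At the weak end, 13 fragments in each library were stacked at the region of scaffold 2 from 30356714 to 30356909, which was 196 bp wide in replicate 1 and 416 bp in replicate 2. The region of scaffold 7 from 42119055 to 42119385 held 14 and 12 fragments, that of scaffold 1 from 54212928 to 54213116 held 12 and 15, and that of scaffold 4 from 18435824 to 18436185 held 15 and 12. The background of these 4 was the genome-wide value in both libraries. Their widths were unstable, most of all on scaffold 1, with 189 bp in replicate 1 and 683 bp in replicate 2. The fewest fragments of any listed peak were 11 in both libraries, so these regions lay close to what the lists can show. The narrowest regions were those of scaffold 18 from 11903082 to 11903262 (181 bp and 193 bp, 19 and 18 fragments), of scaffold 4 from 18892500 to 18892694 (195 bp and 190 bp, 15 and 22 fragments) and of scaffold 19 from 4257080 to 4257273 (194 bp in both libraries, 12 and 15 fragments), beside the 1 on scaffold 4 given above.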

How the data were processed

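The peak lists of 2 ATAC-seq libraries from leaf were used. The authors trimmed reads with fastp, aligned them with BWA-MEM to their Cha. luteum assembly, took out duplicates and reads of low mapping quality with SAMtools and used MACS, with q set to 0.01, on each library. The submitters' processing notes also name deepTools, whose tracks were not used here. Stretches with no listed peak can thus also be places where reads were removed. No source used here gives the read totals, the genome size set in MACS, how read ends were shifted, or a control. The deposited fold is a ratio of fragments to background at the summit, beside a deposited -log10 p and -log10 q. The deposited score repeats that q in nearly all rows and was not used.

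Fragments and background were solved from fold = (fragments + 1) / (background + 1) and the Poisson p-value. The solution was a whole number of fragments for 100% of the peaks, to a relative error under 0.0001 in the -log10 p. Scaffold lengths and centromeres came from the study's supplement, positions count from 1, and a member needed a summit on both sides (8 terminal peaks of replicate 1 and 6 of replicate 2 count as other arm peaks). Medians were taken per library, and SDs are between 2 libraries. Alternatives were -log10 q of at least 5, other overlap demands, distances of 20 and 50 kb, midpoints, summits of both libraries, terminal peaks, peaks beyond 2 Mb of a centromere, other comparison sets, scaffold weights and single libraries. Regions named were, among those isolated in both libraries, the 6 most remote, 6 strongest, 4 weakest, 4 widest and 4 narrowest, with the 2 peaks per library nearest to the limit on each side, the 3 scaffolds with the highest and lowest densities and the fullest windows. The rule and the lists were chosen with earlier results of these data known. The computation was tested on simulated lists. Values were computed with scipy 1.17.1, pandas 2.3.3 and numpy 2.4.6 under Python 3.11.15, and plots drawn with matplotlib 3.10.9.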

Additional observations from a re-analysis of the deposited data

How the results depend on the processing

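The summit fragment, background and fold differences kept the direction of their means under all 14 alternatives each, with ranges of -9 to -0.5 fragments, -2.84 to -1.53 fragments and 0.807 to 1.91. The smallest fragment difference came with all other arm peaks in the comparison, overlapping or not, which adds weak peaks to that side only (-2 in replicate 1, 1 in replicate 2), and that setting also turned the width difference to 42.25 bp and gave a fold difference of 1.91. With a limit of 20 kb the width difference turned to 16 bp and the mean number of isolated peaks was 2009.5, with 50 kb the number was 184.5, and with summits of both libraries as neighbours it was 463. In 8 of 11 alternatives the number stayed within 1.5 times the 793.5 reported. The mean difference in distance to the scaffold end was -32.0 kb within the same 1-Mb windows, where distances can differ little, and 44.1 to 1681 kb under the other alternatives. The libraries went in opposite directions with no overlap demanded (-135 kb in replicate 1, 459 kb in replicate 2) and with a limit of 20 kb (-162 and 250 kb). They also did so with terminal peaks included (-1.58 and 849 kb) and without peaks within 2 Mb of a centromere edge (-124 and 741 kb). Each library alone gave 720 to 867 peaks, width differences of -7 to -2.5 bp and fold differences of 0.907 to 1.61. Each difference was taken within a library and is thus paired by library, and no other pairing applies to 1 group. With 2 libraries the exact sign-flip test cannot go below p = 0.5, and regions with fewer than 11 fragments at the summit are not listed.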
